A study of Mus musculus with 69 samples.

Results

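Cholesterol is built in the cell from acetyl-CoA through the mevalonate pathway, and the genes examined here cover its synthesis, its control and its removal. The 8 genes were Hmgcs1, Idi1, Fdps and Sqle, which encode enzymes of synthesis, Srebf2 and Insig1, which encode a controlling transcription factor and its inhibitor, Ch25h, which encodes cholesterol 25-hydroxylase, and Abca1, which encodes a cholesterol exporter. They were chosen by name and found on the array by matching the accession of each probe to RefSeq. They were measured by 12 of the 41174 probes, and they stand among 18656 genes tested. Hmgcs1, Idi1, Insig1 and Srebf2 had 2 probes each and the others 1.

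The arrays profiled lung RNA of 69 female C57BL/6 mice, 5 to 7 weeks old when obtained and then acclimatised for 1 to 3 weeks. Each mouse received a single intratracheal instillation of vehicle (2% serum in water) or of 18, 54 or 162 µg of NRCWE-025 or NRCWE-030, both of which are titanium dioxide nanomaterials (NMs) dispersed in the same vehicle. Lungs were taken on day 1 or day 28, which made 14 groups. Each held 5 mice, apart from the NRCWE-025 group of 162 µg and day 28, which held 4. The 5 vehicle mice of a day served as controls for both NMs, so the comparisons of the NMs with control are not independent of each other. The RNA came from a small frozen section of 1 whole lung per array, so cell types were not separated. Values are log2 ratios of lung (Cy5) to a commercial mouse reference RNA (Cy3), and a ratio says how far lung stood above or below that reference, not how abundant one gene was beside another.

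When sterols run low in the endoplasmic reticulum, the SREBP-2 protein encoded by Srebf2 is released, moves to the nucleus and switches on the enzymes of synthesis and genes of cholesterol uptake. INSIG proteins hold it back when sterols are plentiful. Cholesterol 25-hydroxylase makes an oxysterol that binds INSIG and so lowers synthesis, and oxysterols also activate the LXR receptors, which switch on exporters such as Abca1. Ch25h is known as a gene that macrophages induce in response to microbial products and interferon, and the lung depends on cholesterol supply and export for the surfactant made by alveolar type 2 cells.

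Promoters are shown for the gene that the dose test called, Ch25h, and for the member whose promoter holds the core of the sterol regulatory element, the site that SREBP-2 binds. RefSeq promoters of assembly GRCm38.p6 were at hand for 6 of the 8 genes, not for Sqle and Fdps. In each, the 250 bases before the gene start were searched on both strands for the sterol regulatory element core TCACNCCAC, the CCAAT box CCAAT and the GC box GGGCGG. The Ch25h stretch lies at chr19:34475149-34475398 on the minus strand, and the Hmgcs1 stretch, 29 bases long, at chr13:119690204-119690232 on the plus strand. Capitals mark the sterol regulatory element core in Hmgcs1 and, in Ch25h, the cAMP response element TGACGTCA, which was added to the search after the Ch25h sequence had been read.
Ch25h: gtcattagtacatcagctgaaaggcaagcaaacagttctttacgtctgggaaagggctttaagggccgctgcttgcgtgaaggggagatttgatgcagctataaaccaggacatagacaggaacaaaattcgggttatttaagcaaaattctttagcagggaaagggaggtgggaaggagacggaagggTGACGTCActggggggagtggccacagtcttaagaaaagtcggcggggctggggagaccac
Hmgcs1: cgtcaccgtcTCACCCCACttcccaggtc
The sterol regulatory element core was found in Hmgcs1 alone among the 6, against 1.05% of all 32851 promoters of this length. The CCAAT box, at 33.8% of all promoters, was found in Hmgcs1, Idi1, Insig1 and Srebf2, and the GC box, at 32.7%, in the same genes and Abca1. Ch25h held none of these 3 and 1 match to the cAMP response element, which 1.55% of all promoters hold. A match is a run of letters, not a site shown to be used, and an absent match says nothing about the factor.

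Before the results, 1 array needs mention. For replicate 5 of NRCWE-030 18 µg day 28, the deposited normalised values correlated at 0.922 with its own scanner file and better, up to 0.970, with those of 66 other arrays. The Ch25h results of NRCWE-030 on day 28 are given below with and without it, and all others with it. Leaving it out changed no call among the 8 genes. The share of spots that stood well above background in Cy5 ran from 49.1% to 72.8% over the arrays (median 62.1%). Ch25h, Abca1, Fdps, Sqle, both Insig1 probes and the brighter probes of Hmgcs1, Idi1 and Srebf2 were well above background on all 69 arrays. The dimmer probe of Hmgcs1 passed on 19 arrays, that of Srebf2 on 25 and that of Idi1 on 66, and no gene was below background with all its probes on every array of a group.

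Ch25h rose on day 1 after the highest dose of either NM, by 3.29-fold for NRCWE-030 and 2.91-fold for NRCWE-025, the second of which was called in few of the other settings. It was the only one of the 8 genes called in any comparison. On day 28 its ratio after 162 µg of NRCWE-030 was above that of every control in all 5 lungs, but the test of that dose called it only with slide as a random block. At 162 µg on day 1 the enzymes of synthesis and Srebf2 had means slightly above control and were not called, and Insig1 and Abca1 were not called either.

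The control lungs of day 1 had Ch25h ratios of 2.21, 2.13, 2.27, 1.82 and 1.60 (mean 2.01 ± 0.28, SD, n = 5). The lungs given 162 µg of NRCWE-030 had 3.89, 3.76, 3.85, 3.60 and 3.53 (mean 3.73 ± 0.16, SD, n = 5). Each treated lung lay above each control lung, and the treated lungs were the more alike. The difference was 1.72 ± 0.30 (SE), with a limma adjusted p of 0.00482 over all genes. The F-test over the doses, which asks whether a gene differs among control, 18, 54 and 162 µg, gave an adjusted p of 0.0213. By size of the increase at 162 µg, Ch25h ranked 19 of 18656 genes. Because whole lung was measured, more (or fewer) cells of a type and more (or less) RNA per cell cannot be told apart.

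The lower doses of NRCWE-030 gave Ch25h ratios between these. At 18 µg the lungs had 3.72, 1.87, 3.89, 2.61 and 2.76 (mean 2.97 ± 0.84, SD, n = 5), and 4 of the 5 lay above every control. At 54 µg they had 3.48, 3.06, 3.06, 2.90 and 4.11 (mean 3.32 ± 0.49, SD, n = 5), and all 5 lay above every control. The differences from control were 0.96 ± 0.30 (SE, limma adjusted p 0.476) and 1.32 ± 0.30 (SE, limma adjusted p 0.0874), so neither dose was called on its own. At 54 µg the call changed with the slide as a fixed block (1.80, adjusted p 0.0304) or a random block (1.43, adjusted p 0.0248). The means stood in the order of the dose, but neighbouring doses overlapped.

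NRCWE-025 gave a similar order on day 1. At 18 µg the Ch25h ratios were 3.23, 2.77, 1.87, 2.28 and 1.70 (mean 2.37 ± 0.64, SD, n = 5), which overlapped the controls. At 54 µg they were 3.92, 3.46, 4.01, 2.27 and 3.10 (mean 3.35 ± 0.71, SD, n = 5), with 4 of 5 above every control. At 162 µg they were 2.84, 3.27, 3.82, 4.06 and 3.76 (mean 3.55 ± 0.49, SD, n = 5), all above every control. Against control the 162 µg group differed by 1.54 ± 0.32 (SE, limma adjusted p 0.0477), which is just inside the threshold, and the 54 µg group by 1.34 ± 0.32 (SE, adjusted p 0.232). The F-test over the doses did not call it (adjusted p 0.0919). The call at 162 µg was lost in 7 of 11 other settings, with differences from 1.05 to 1.98, and in 14 of the 20 refits without a single array, with differences from 1.41 to 1.72. Leaving out any 1 of the controls ended it (adjusted p 0.0549 to 0.132), as did leaving out replicate 3, 4 or 5 of the 162 µg group, 2, 3 or 4 of the 18 µg group or 1, 2 or 5 of the 54 µg group (adjusted p 0.0512 to 0.152). The call for NRCWE-030 at 162 µg held in all 11 and all 20, and its F-test call was lost with scan day as a block, 1 of 10 other settings, with the ordinary F-test, and in 5 of 20. Those 5 left out replicate 1, 2 or 3 of the 162 µg group or replicate 4 or 5 of the controls (adjusted p 0.0505 to 0.0654).

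On day 28 the control lungs had Ch25h ratios of 2.19, 2.07, 1.52, 1.95 and 2.54 (mean 2.05 ± 0.37, SD, n = 5), close to those of day 1. After 162 µg of NRCWE-030 they were 3.12, 4.11, 3.52, 2.59 and 4.29 (mean 3.52 ± 0.70, SD, n = 5), and all 5 lay above every control. The difference was 1.47 ± 0.38 (SE), or 2.77-fold, which ranked 8 of 18656 genes by size of the increase, but the spread between the lungs was wide and the limma adjusted p was 0.230 (F-test 0.304). With slide as a random block these were 0.0472 and 0.0470, and with scan day as a block 0.123 and 0.0463. With slide as a fixed block they were 0.0720 and 0.0560. The random block also raised the calls over all genes, from 18 to 72 at 162 µg and from 19 to 96 by the F-test. At 54 µg the lungs had 3.70, 3.32, 3.77, 2.04 and 1.73, of which 3 lay above every control and 2 within their range (difference 0.86 ± 0.38, SE, adjusted p 0.746). At 18 µg they were 2.85, 1.92, 2.29, 1.59 and 1.95 (difference 0.07 ± 0.38, SE, adjusted p 0.984). Without replicate 5 of that group, the array named above, the difference at 18 µg was 0.11 (adjusted p 0.957). The differences at 54 and 162 µg, which share only the estimate of spread with it, then had adjusted p of 0.582 and 0.171, and the F-test gave 0.293.

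After NRCWE-025 no dose was called for Ch25h on day 28. The ratios were 1.53, 1.65, 2.35, 1.39 and 2.35 at 18 µg (difference -0.20 ± 0.24, SE) and 1.93, 1.87, 1.92, 1.89 and 1.40 at 54 µg (difference -0.25 ± 0.24, SE). At 162 µg the 4 lungs had 3.14, 2.95, 2.35 and 1.93 (difference 0.54 ± 0.25, SE, limma adjusted p 0.681), and 2 of them lay above every control. That difference ranked 78 of 18656 genes by size of the increase.

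**Figure D1:**
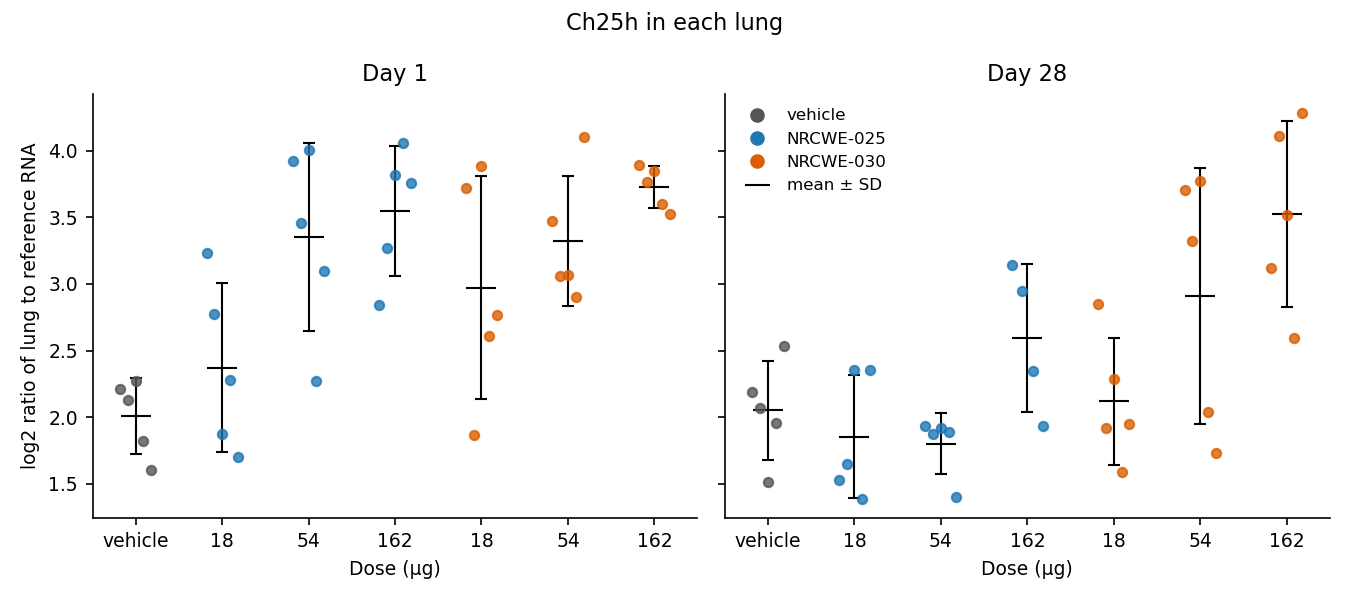
Ch25h as the log2 ratio of lung to reference RNA (vertical axis) in each of 69 lungs, by dose in µg (horizontal axis) on day 1 (left) and day 28 (right). Points are lungs, and black bars are the group mean ± SD. At 162 µg on day 1 all treated lungs lie above the highest control, 2.27, and on day 28 those of NRCWE-030 lie above 2.54.

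Arrays were hybridised on 19 slides, some of which held a control and treated lungs together. On day 1, Ch25h was higher than the control of the same slide in 2 of 2 slides for 162 µg of NRCWE-030, by 2.07 and 2.25, and in 2 of 2 for 162 µg of NRCWE-025, by 0.63 and 1.00. On day 28 it was higher in 3 of 3 slides for 162 µg of NRCWE-030, by 0.93 to 2.59. For 162 µg of NRCWE-025 on day 28 it was higher in 1 of 1 slide, by 1.19, beside a group difference of 0.54. The within-slide differences therefore ran the same way as the group differences, though for NRCWE-025 on day 1 they were smaller than the group difference of 1.54. For the enzymes of synthesis the slides were less even. After 162 µg of NRCWE-030 on day 1, Hmgcs1, Idi1, Fdps and Sqle were each higher than the control in 2 of 2 slides, by 0.16 to 0.97. After NRCWE-025 this held for Hmgcs1 in 2 of 2, for Idi1 and Sqle in 1 of 2 and for Fdps in 0 of 2 (-0.38 and -0.02), the reverse of its group difference.

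Counted over the 8 genes and beside all genes, the calls were few. On day 1 the dose F-test called 1 of 8 genes for NRCWE-030 (0.954% of all genes) and 0 of 8 for NRCWE-025 (0.0214% of all genes). At an unadjusted limma F-test p under 0.05 were 2 and 3 of 8, against 2092 and 1861 of all 18656 genes. On day 28 the F-test called 0 of 8 for NRCWE-030 (0.102% of all genes) and 0 of 8 for NRCWE-025 (0.0268% of all genes). Unadjusted, 1 of 8 had an F-test p under 0.05 for each NM, against 1318 (NRCWE-030) and 1076 (NRCWE-025) of all genes. The ordinary F-test, with no moderation across genes, called 0 of 8 in all 4 fits, and of all 18656 genes it called 0 (NRCWE-025) and 74 (NRCWE-030) on day 1, and 3 and 5 in the same order on day 28. At 162 µg against control, 1 of 8 was called on day 1 for NRCWE-025 (0.209% of all genes) and 1 of 8 for NRCWE-030 (1.69%). An unadjusted limma p under 0.05 was found for 3 and 4 of 8 (12.3% and 12.9% of all genes). For day 28 the count called was 0 of 8 for NRCWE-025 (0.0161% of all genes) and for NRCWE-030 (0.0965%). An unadjusted p under 0.05 was then found for 1 and 2 of 8 (7.24% and 7.51% of all genes).

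At the lower doses limma called 0 of the 8 genes throughout. At 54 µg on day 1, 3 of 8 for NRCWE-025 and 1 of 8 for NRCWE-030 had an unadjusted p under 0.05 (6.53% and 8.76% of all genes), and all genes were called at 0% and 0.0804%. On day 28 at 54 µg the counts were 0 and 1 of 8 unadjusted (7.07% and 6.52% of all genes), and all genes were called at 0.0268% and 0.0536%. At 18 µg the unadjusted counts were 0 (NRCWE-025) and 1 (NRCWE-030) of 8 on day 1, and 0 for either NM on day 28. Of all genes, 5.12% and 7.3% on day 1 and 8.89% and 9.03% on day 28 had such a p. All genes were called at 18 µg at 0% and 0.00536% on day 1 and at 0.059% and 0.118% on day 28.

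**Figure D2:**
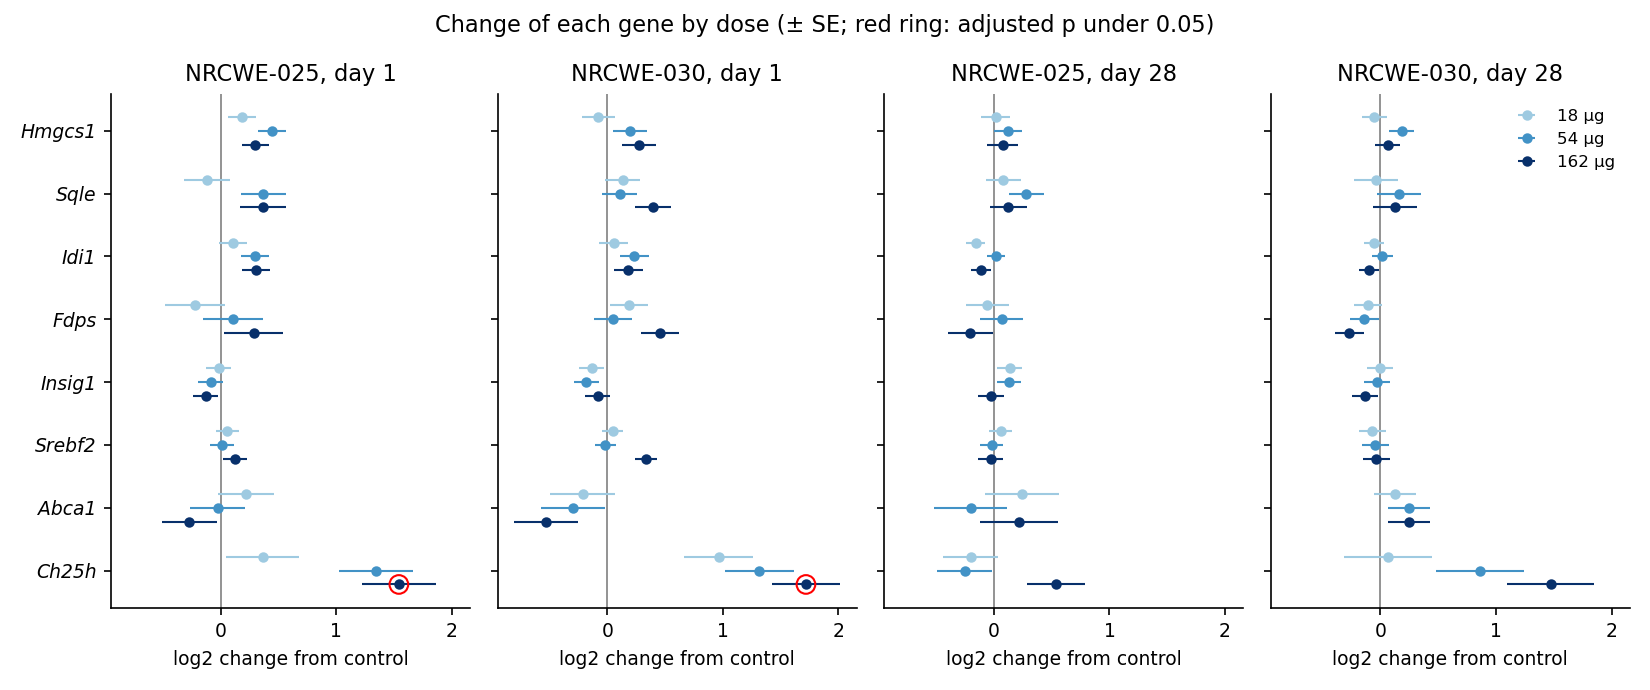
Difference from the control mean of the same day, in log2 units (horizontal axis), for each of the 8 genes (vertical axis) at 18, 54 and 162 µg, by NM and day. Bars are ± SE of the limma fit, and red rings mark the 2 differences with an adjusted p under 0.05, both of them Ch25h at 162 µg on day 1.

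The enzymes of synthesis were next. HMG-CoA synthase (Hmgcs1) makes the precursor of mevalonate, isopentenyl diphosphate isomerase (Idi1) and farnesyl diphosphate synthase (Fdps) build the isoprenoid chain, and squalene epoxidase (Sqle) acts on squalene later in the pathway. At 162 µg on day 1 all 4 had means above control for both NMs, by 0.18 to 0.45 log2 units, and none was called.

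Fdps at 162 µg of NRCWE-030 had ratios of -0.19, -0.37, -0.33, -0.41 and 0.01 against -1.05, -0.68, -0.68, -0.50 and -0.66 in the controls of day 1. All 5 treated lungs lay above every control, by a difference of 0.45 ± 0.17 (SE, limma adjusted p 0.213). After 162 µg of NRCWE-025 the Fdps ratios were -1.07, -1.06, -0.20, 0.29 and -0.10, with 3 lungs above and 2 below every control (difference 0.29 ± 0.26, SE, adjusted p 0.700). On day 28 the difference at 162 µg was -0.27 ± 0.12 (SE) for NRCWE-030 and -0.20 ± 0.19 (SE) for NRCWE-025, with 5 and 4 treated lungs and adjusted p-values of 0.654 and 0.865.

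Sqle at 162 µg on day 1 had ratios of -0.80, -1.04, -0.66, -1.16 and -0.75 for NRCWE-030 and -1.53, -1.17, -0.60, -0.58 and -0.65 for NRCWE-025, against -1.26, -1.11, -1.19, -1.17 and -1.63 in controls. The lungs above every control were 4 of 5 and 3 of 5. The differences were 0.39 ± 0.15 (SE, limma adjusted p 0.242) and 0.37 ± 0.20 (SE, limma adjusted p 0.465).

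Hmgcs1 was highest at 54 µg of NRCWE-025 on day 1, with ratios of 0.43, 0.39, 0.47, 0.31 and 0.41 against -0.15, -0.03, -0.10, 0.28 and -0.21 in controls. All 5 lay above every control, by 0.44 ± 0.12 (SE, limma adjusted p 0.342). At 162 µg the differences were 0.30 ± 0.12 (SE, adjusted p 0.304) for NRCWE-025 and 0.27 ± 0.15 (SE, adjusted p 0.470) for NRCWE-030. Its probes differed in size: for NRCWE-030 at 162 µg the bright probe gave 0.47 ± 0.24 (SE) and the dim one 0.08 ± 0.10 (SE), where the dim one was rarely well above background.

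Idi1 ranged among the day 1 controls from 0.04 to 0.47. At 162 µg of NRCWE-025 the ratios were 0.42, 0.48, 0.73, 0.65 and 0.81, with 4 of 5 above every control (difference 0.30 ± 0.12, SE, limma adjusted p 0.304). At 162 µg of NRCWE-030 they were 0.92, 0.53, 0.42, 0.15 and 0.46, with 2 of 5 above every control (difference 0.18 ± 0.13, SE, limma adjusted p 0.624). The Idi1 controls of day 28 were closely grouped (0.37 ± 0.05, SD, n = 5), and the differences at 162 µg were -0.11 ± 0.08 and -0.10 ± 0.09 (SE) for NRCWE-025 and NRCWE-030.

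Some groups lay wholly above the controls, and the share of all genes for which this held is given beside each count. At 162 µg on day 1 this held for 1 of 8 genes after NRCWE-025 (0.874% of all genes) and for 2 of 8, Ch25h and Fdps, after NRCWE-030 (2.9% of all genes). At 54 µg on day 1 it held for 1 of 8 after each NM, Hmgcs1 for NRCWE-025 (0.541% of all genes) and Ch25h for NRCWE-030 (1.06%). On day 28 at 162 µg it held for 0 of 8 after NRCWE-025 (1.15% of all genes) and for 1 of 8, Ch25h, after NRCWE-030 (1.09%).

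Srebf2 encodes the transcription factor of the pathway. At 162 µg of NRCWE-030 on day 1 its ratios were -0.21, -0.55, -0.28, -0.33 and -0.10, against -0.47, -0.70, -0.83, -0.55 and -0.58 in controls. The groups overlapped by 1 lung, and the difference of 0.33 ± 0.09 (SE) had a limma adjusted p of 0.0717 (F-test 0.129). It was called in 1 of 11 other settings, with slide as a random block (adjusted p 0.0499), and in 1 of the 20 refits without a single array, replicate 2 of the 162 µg group (adjusted p 0.0431). The bright probe gave 0.60 ± 0.16 (SE, adjusted p 0.0972 over all probes) and the dim probe 0.07 ± 0.08 (SE, adjusted p 0.856), and the gene's value is the median of both.

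The other Srebf2 groups stayed near control. At 162 µg of NRCWE-025 on day 1 the difference was 0.12 ± 0.10 (SE, limma adjusted p 0.669), and it was -0.25 with the scanner software's log ratio. On day 28 it was -0.03 ± 0.11 and -0.04 ± 0.12 (SE) at 162 µg of NRCWE-025 and NRCWE-030, values whose sign changed between settings.

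Insig1, which retains SREBP-2 and is itself switched on by it, had the narrowest spread of group means, from -0.40 to -0.11. Each value is the median of both its probes, which could differ. At 162 µg of NRCWE-030 on day 28 the brighter gave -0.01 ± 0.14 (SE) and the dimmer -0.26 ± 0.12 (SE), and neither was called. On day 1, lungs given 162 µg of NRCWE-025 had ratios of -0.36, -0.33, -0.14, -0.24 and -0.12, and those given NRCWE-030 had -0.13, -0.35, -0.17, -0.25 and -0.06, all within the control range of -0.54 to 0.06. Against control this made -0.13 ± 0.11 (SE, limma adjusted p 0.670) and -0.08 ± 0.11 (SE, adjusted p 0.859). The low end of the control range was a single lung, replicate 3, and the other controls ran from -0.10 to 0.06. In refits without a single array the difference ran from -0.24 to -0.09 for NRCWE-025. For NRCWE-030 it ran from -0.19 to -0.04, and no refit called either. No treated lung lay above or below every control at 162 µg on either day, with replicate 3 counted among the controls of day 1.

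Abca1 pumps cholesterol out of the cell and is a target of the LXR receptors. At 162 µg of NRCWE-030 on day 1 its ratios were 1.23, 1.31, 1.39, 1.66 and 1.68, against 2.08, 1.35, 2.17, 2.45 and 1.86 in controls. The difference was -0.53 ± 0.28 (SE, limma adjusted p 0.459), and 2 of 5 lay below every control. After NRCWE-025 it was -0.27 ± 0.24 (SE, adjusted p 0.692), with ratios of 2.29, 1.94, 2.01, 0.78 and 1.53. The day 28 differences at 162 µg were 0.22 ± 0.34 (SE, adjusted p 0.938) and 0.25 ± 0.18 (SE, adjusted p 0.817). Single lungs stood far below the rest of their group, at 0.70 for 18 µg of NRCWE-030 on day 1 and at 0.20 for 54 µg of NRCWE-025 on day 28.

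**Figure D3:**
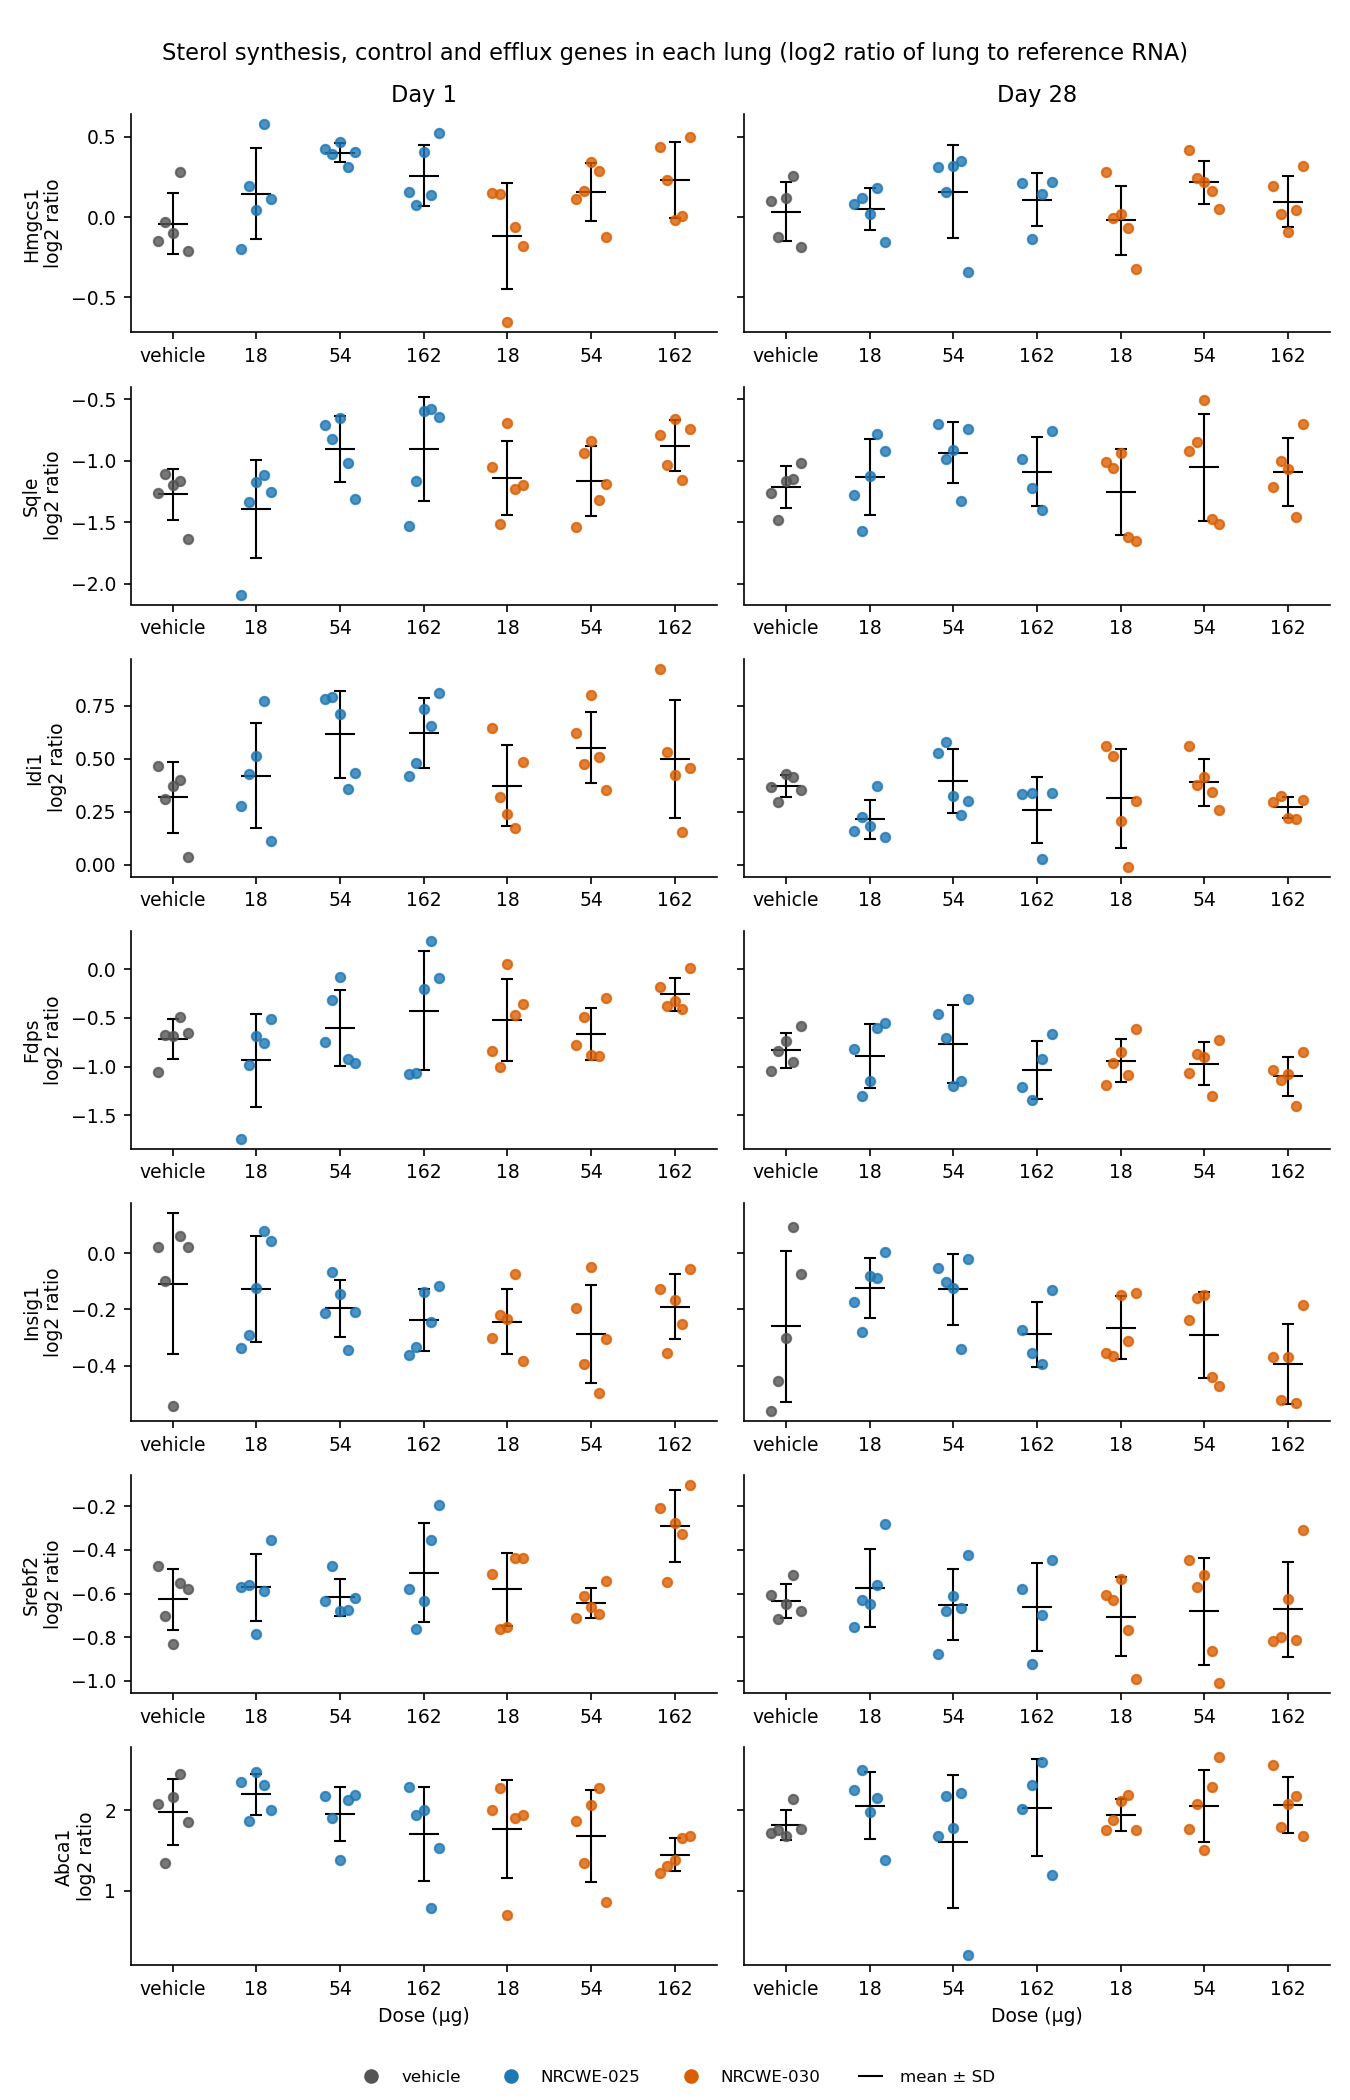
Log2 ratio of lung to reference RNA (vertical axes, with a separate scale for each gene) of Hmgcs1, Sqle, Idi1, Fdps, Insig1, Srebf2 and Abca1 in each of 69 lungs, by dose in µg (horizontal axes) on day 1 (left) and day 28 (right). Points are lungs, and black bars are the group mean ± SD. Treated and control lungs overlap in every group drawn, except for Hmgcs1 at 54 µg of NRCWE-025 and Fdps at 162 µg of NRCWE-030 on day 1.

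The direct comparison of the NMs asked whether their effects differed at the same dose. On day 1 limma's F-test over the 3 doses called 0 of 8 genes (0.155% of all genes, and 0 of 8 at an unadjusted p under 0.05). On day 28 it called 0 of 8 (0.241% of all genes), with Ch25h at an unadjusted p under 0.05 and an adjusted p of 0.243. Ch25h was higher after NRCWE-030 on day 28 by 0.27 at 18 µg (95% interval -0.43 to 0.97), by 1.11 at 54 µg (0.41 to 1.81) and by 0.93 at 162 µg (0.19 to 1.67). These intervals are not adjusted, and the limma adjusted p were 0.943, 0.296 and 0.99995, so none of these doses was called. On day 1 the difference at 162 µg was 0.18 (95% interval -0.52 to 0.88), and at 18 and 54 µg it was 0.60 (-0.10 to 1.30) and -0.03 (-0.73 to 0.67). For the other 7 genes no difference between the NMs at any dose and day exceeded 0.45 in size (Hmgcs1 at 18 µg on day 1, at -0.26, had an unadjusted p of 0.0479), and their 95% intervals reached from -1.0 to 1.02.

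The comparison of days asked whether the effect of 162 µg on day 1 differed from that on day 28. For NRCWE-025 limma called 0 of 8 (0.059% of all genes), with Idi1 at an unadjusted p under 0.05 (0.42, 95% interval 0.09 to 0.74, adjusted p 0.334). For NRCWE-030 it called 0 of 8 (0.198% of all genes), with Fdps and Srebf2 at an unadjusted p under 0.05. For Ch25h the effect on day 1 minus that on day 28 was 1.00 (95% interval -0.02 to 2.02, adjusted p 0.477) for NRCWE-025 and 0.25 (-0.74 to 1.24, adjusted p 0.951) for NRCWE-030. Fdps gave 0.72 (0.13 to 1.31, adjusted p 0.486) and Srebf2 0.37 (0.07 to 0.67, adjusted p 0.480) after NRCWE-030. Between the controls of the days, 0 of 8 genes were called and 0 of 8 had an unadjusted p under 0.05 (0.0375% of all genes called), with differences from -0.17 to 0.08.

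The wider pathway was described by lists that hold the genes above and others of the same function. At 162 µg on day 1, 18 of the 20 enzymes of cholesterol synthesis had a mean above control after NRCWE-025, with a median of 0.25 log2 units, and 18 of 20 after NRCWE-030, with a median of 0.21. All genes had medians of 0.00 and 50% and 51.3% of them above control. On day 28 it was 6 of 20 (median -0.07) and 9 of 20 (median -0.04). limma called 0 of the 20 enzymes in each of these comparisons, and 6, 5, 0 and 1 of them had an unadjusted p under 0.05, against 12.3%, 12.9%, 7.24% and 7.51% of all genes. Under 5 other normalisations the day 1 counts lay between 17 and 19 of 20, and with the brightest probe of each gene 17 of 19 were higher for either NM. The scanner log ratio called 1 of the 20 after NRCWE-030 on day 1. The lists were not refitted with slide or scan day as a block. At 162 µg on day 1, replicates 3, 4 and 5 of NRCWE-025 shared slides 15, 17 and 19 with replicates 2, 4 and 5 of NRCWE-030. These slides held no control, and the part of the slide in the enzyme counts was not tested.

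Single enzymes show the size of these differences. The 4 members are among the 20. Mvk, mevalonate kinase, was above every control in all 5 lungs at 162 µg of NRCWE-030 (0.34 ± 0.11, SE, limma adjusted p 0.154), and Hsd17b7, an enzyme of the late steps, gave 0.43 ± 0.13 (SE, adjusted p 0.150) after NRCWE-025. The enzymes with a mean below control were Pmvk and Ebp for both NMs. These 4 genes were picked after their values were seen.

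The mean over the 20 enzymes ran from -0.38 to -0.25 in the controls of day 1. In single lungs it ran from -0.39 to 0.11 at 162 µg of NRCWE-025 and from -0.29 to 0.07 at 162 µg of NRCWE-030, so the groups overlapped. The controls of day 28 ran from -0.45 to -0.32, and the lungs at 162 µg from -0.56 to -0.36 and from -0.59 to -0.28.

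**Figure D4:**
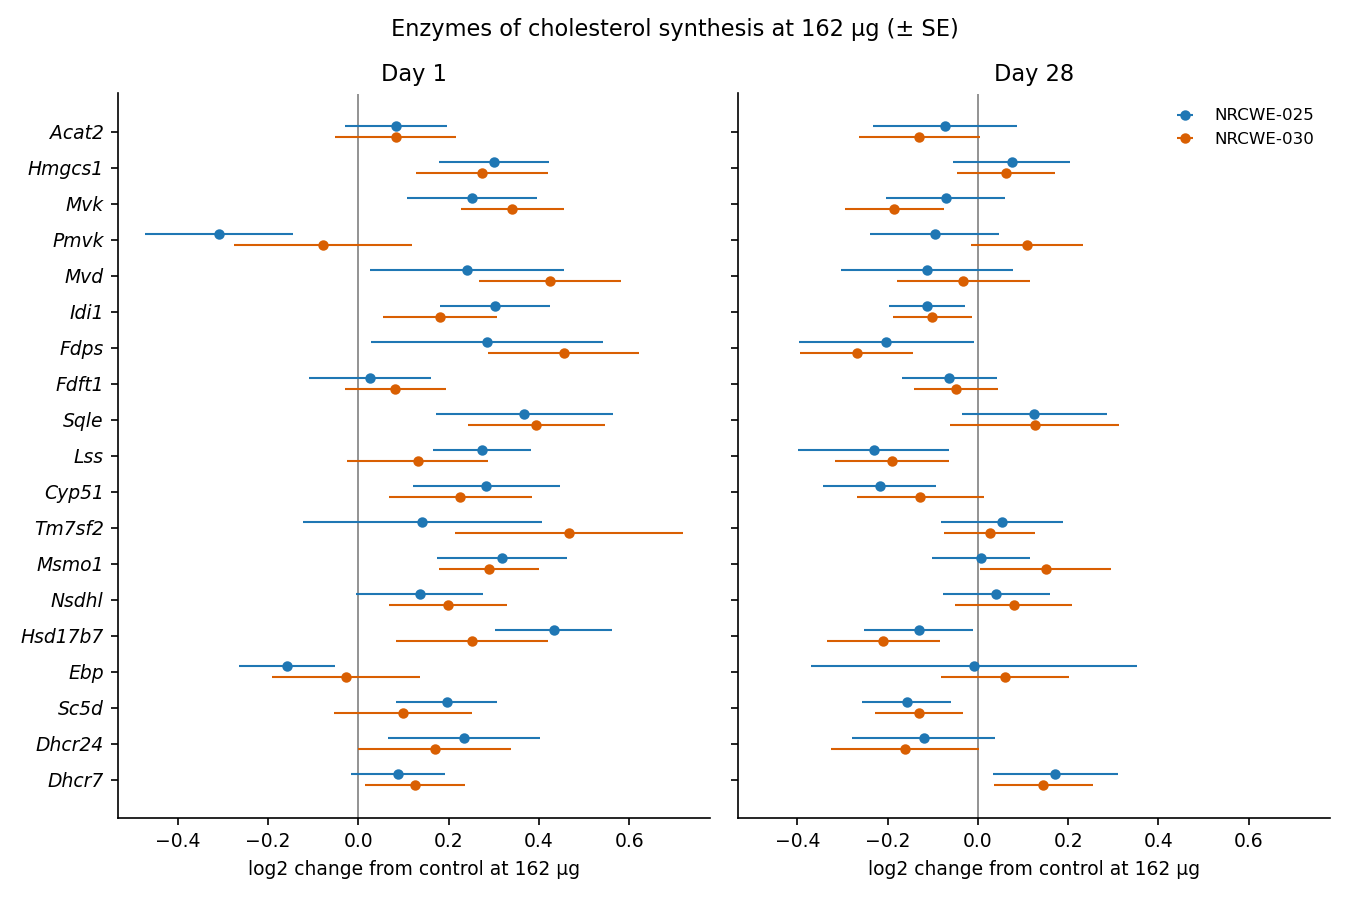
Difference from the control mean of the same day at 162 µg, in log2 units (horizontal axis), for 19 of the 20 enzymes of cholesterol synthesis in pathway order (vertical axis) on day 1 (left) and day 28 (right). Points are NRCWE-025 (blue) and NRCWE-030 (orange), and bars are ± SE of the limma fit. On day 1, 17 of 19 points lie to the right of 0 for each NM, and on day 28 it is 6 for NRCWE-025 and 8 for NRCWE-030, with no single call.

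The list of sterol sensing and uptake genes was described in the same way, with no test against the enzymes. Of its 15 genes, 9 and 8 had a mean above control at 162 µg of NRCWE-025 and NRCWE-030 on day 1 (medians 0.07 and 0.01) and 9 and 10 on day 28 (medians 0.02 and 0.10). limma called 0 of 15 in each, with 1, 5, 0 and 1 at an unadjusted p under 0.05 (12.3%, 12.9%, 7.24% and 7.51% of all genes). After NRCWE-030 on day 1, scaling between arrays called 1 and the scanner log ratio 2. The direction of the day 1 median was not settled, since it ran from -0.12 to 0.06 and from -0.08 to 0.01 under the other normalisations. In this list Mbtps2, a protease that releases SREBP-2, was well above background on 0 of 69 arrays.

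Of the 13 oxysterol and LXR genes, Ch25h was the only one called, though 4 of 6 other processings called 2 after NRCWE-030 on day 1. Above control at 162 µg were 4 and 6 of 13 on day 1 (medians -0.15 and -0.05, a sign that changed with the normalisation) and 8 and 9 of 13 on day 28 (medians 0.07 and 0.23). At an unadjusted limma p under 0.05 were 4, 4, 4 and 6 of them, against 12.3%, 12.9%, 7.24% and 7.51% of all genes. Cyp7b1, picked after its values were seen, encodes the enzyme that converts the product of Ch25h further. It gave 1.33 ± 0.35 (SE, adjusted p 0.0642) at 162 µg of NRCWE-030 on day 1, with all 5 lungs above every control, and 0.78 ± 0.19 (SE, adjusted p 0.210) on day 28, with 4 of 5. After NRCWE-025 it gave 0.65 ± 0.40 and 0.25 ± 0.24 (SE).

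Fatty acid synthesis, which the related factor SREBP-1 controls, held 1 called gene of 8, at 162 µg of NRCWE-030 on day 1 (1.69% of all genes). Fads2, a fatty acid desaturase, rose by 0.59 ± 0.10 (SE) at 162 µg of NRCWE-030 on day 1 (limma adjusted p 0.00316, F-test 0.0146), with all 5 lungs above every control. After NRCWE-025 on day 1 it gave 0.49 ± 0.11 (SE, adjusted p 0.0633), and on day 28 -0.05 ± 0.10 and -0.16 ± 0.07 (SE). Of the 8 genes, 3 and 3 had a mean above control on day 1 (medians -0.09 and -0.16) and 0 and 0 on day 28 (medians -0.09 and -0.17). With the brightest probe of each gene, 2 of 8 were called after NRCWE-030 on day 1. With scaling between arrays the day 1 median for NRCWE-025 was 0.02.

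Cell type markers were read beside these results, as the mean over each list. Alveolar type 2 markers, all 7 well above background on every array, ran from 4.78 to 5.18 in the controls of day 1, from 4.65 to 5.06 at 162 µg of NRCWE-025 and from 4.71 to 5.07 at 162 µg of NRCWE-030. Macrophage markers (6 of 7 measured) ran from 3.08 to 3.50 in controls and from 3.19 to 3.70 and 2.87 to 3.70 at 162 µg. On day 28 they ran from 2.93 to 3.68 in controls and from 3.11 to 3.40 and 3.35 to 3.76. Of the macrophage markers, 0 of 6 were called at 162 µg on either day, and on day 28 after NRCWE-030 5 of 6 had a mean above control (median 0.40).

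Neutrophil markers (6 of 6 measured) ran from 1.85 to 2.42 in controls of day 1 and from 1.91 to 3.07 and 2.30 to 2.86 at 162 µg of NRCWE-025 and NRCWE-030. Of these 6, 1 was called higher on day 1 after NRCWE-030 (1.69% of all genes were called), and 4 of 6 had a mean above control. On day 28 the controls ran from 2.03 to 3.34 and the lungs at 162 µg from 1.85 to 2.46 and 1.81 to 2.17. Then 1 of 6 was called lower after NRCWE-030 (0.0965% of all genes were called). The part of the macrophage and neutrophil markers in the Ch25h results was not tested.

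Markers of tissue next to the lung varied widely between lungs. Heart muscle markers (6 of 6 measured) ran from 0.96 to 5.02 in controls of day 1, from 0.54 to 1.1 at 162 µg of NRCWE-025 and from 0.19 to 3.70 at 162 µg of NRCWE-030. Fat cell markers (6 of 6 measured, of which Lep was well above background on 1 of 69 arrays) ran from 1.46 to 4.40 in controls, from 0.33 to 2.30 and from 0.53 to 2.51. All 6 fat markers had a mean below control at 162 µg for both NMs. Of them, 1 of 6 was called lower after NRCWE-030 (1.69% of all genes were called). The part of these in the day 1 differences was not tested.

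Clock genes, which move with the time of day, also differed, and cholesterol synthesis is known to follow the time of day. The mean over 12 clock genes ran from -0.08 to 0.52 in the controls of day 1, from 0.15 to 0.36 at 162 µg of NRCWE-025 and from 0.23 to 0.48 at 162 µg of NRCWE-030. On day 28 it ran from -0.02 to 0.31 in controls, from 0.06 to 0.20 at 162 µg of NRCWE-025 and from 0.30 to 0.62 at 162 µg of NRCWE-030. After NRCWE-030 at 162 µg limma called 2 of 12 on day 1 (1.69% of all genes) and 4 of 12 on day 28 (0.0965% of all genes). After NRCWE-025 it called 0 of 12 on both. Single genes moved both ways, which a mean over the list can hide. At 162 µg of NRCWE-030 the differences ran from -1.51 to 1.79 on day 1 and from -1.37 to 2.27 on day 28. By limma, 10 and 6 of 12 then had an unadjusted p under 0.05 (12.9% and 7.51% of all genes). After NRCWE-025 the counts were 2 and 1 of 12 (12.3% and 7.24% of all genes). Npas2, Cry1 and Ciart were well above background on 18, 5 and 29 arrays only. The part of the clock genes in the results was not tested.

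The other marker lists held no call at 162 µg. Of 6 markers of alveolar type 1 cells and endothelium, 3 and 3 had a mean above control on day 1 and 0 and 1 on day 28. Of 3 club and ciliated cell markers it was 0 and 0, then 1 and 2, and of 5 T and B cell markers 1 and 1, then 3 and 3.

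How the 8 genes varied from lung to lung was described with the group means taken out, over 69 arrays that share the reference RNA and, by slide and scan day, their processing. Sqle and Fdps had the highest correlation of the 28 pairs (r = 0.61), followed by Hmgcs1 and Idi1 (r = 0.51) and Sqle and Idi1 (r = 0.48). Insig1 and Srebf2 had r = 0.46. Abca1 ran against several of them, with r = -0.56 for Fdps, -0.52 for Sqle and -0.40 for Ch25h. The pairs of enzymes were not all alike, since Hmgcs1 and Fdps had r = -0.09.

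**Figure D5:**
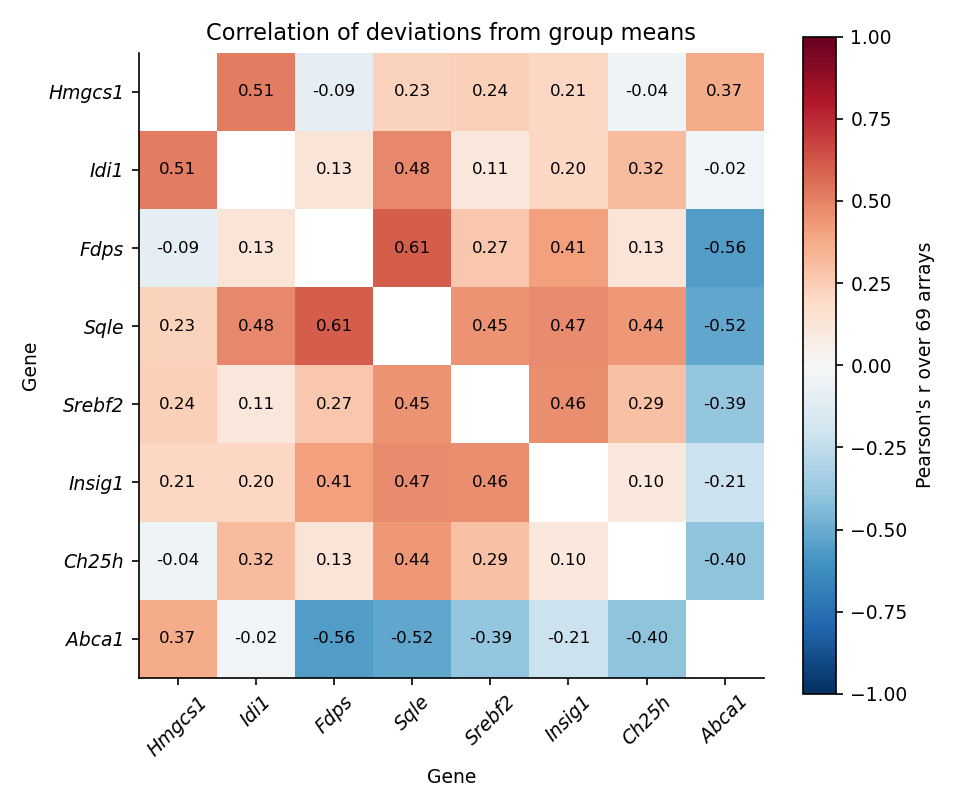
Pearson's r between the 8 genes (both axes) over 69 arrays, each value taken as its deviation from the mean of its group. Red is positive and blue negative. Sqle and Fdps, at 0.61, are the highest pair, and Fdps and Abca1, at -0.56, the lowest.

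By the same measure the genes most like Ch25h were Rgs1, a regulator of G protein signalling (r = 0.80), Slc26a4, an anion exchanger (r = 0.78), and Noxo1, a subunit that organises an NADPH oxidase (r = 0.78), while 99% of all genes lay below 0.50. For Fdps it was Fdft1, the next enzyme of the sterol branch (r = 0.84), Cops6 (0.81) and Psmd1 (0.80). For Idi1 it was the sterol enzyme Msmo1 (0.67) and Snx7 (0.59), and for Insig1 it was Aacs, an acetoacetyl-CoA synthetase (0.64), Fbxo32 (0.53) and Nemp2 (0.50).

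The others had no gene of the pathway lists among their 20 most alike. The top genes were Cp (0.80), Cd14 (0.78) and Togaram2 (0.75) for Sqle, and Atp6v1g1 (0.78), Vti1b (0.74) and Arf4 (0.73) for Hmgcs1. They were Syne3 (0.69), Sh3bp2 (0.65) and Rhbdd3 (0.63) for Srebf2, and Cdh16 (0.82), Tecpr1 (0.81) and Zfp281 (0.81) for Abca1. Idi1 had 4 such genes among its 20, Insig1 5 and Fdps 2. Ch25h also had none.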

How the data were processed

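The deposited scanner files of Agilent Feature Extraction 11.0.1.1 give, per the file headers, a median intensity of each spot and its local background in Cy5 (lung of 1 mouse) and Cy3 (reference), a log10 ratio, and flags scored 0 or 1. The authors' deposited series matrix holds log2 ratios after LOWESS. The array grid refers to build mm9, so RefSeq of GRCm38.p6 served for names and its own promoter sequences.

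Here limma 3.58.1 in R 4.3.3 (plots by matplotlib 3.10.9 in Python 3.11.15) was used for normexp (offset 50), with local backgrounds marked as outliers replaced by the median of the others, and for loess within each array. Flagged spots were left out, and spots, then probes, of a symbol were combined by the median. Of 41174 probes, 27479 (66.7%) had a symbol, and 18656 genes were tested after 93 with missing values were dropped. The highest correlation between 2 arrays was 0.990, so none was taken for a duplicate.

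One fit per NM and day (controls and 3 doses) gave moderated F-tests and contrasts with control, and 1 fit of 14 groups compared NMs and days. Tests were two-sided, p-values were adjusted by Benjamini-Hochberg over all genes tested, and genes were called under 0.05. The code was tested on simulated data. The number of arrays limits the precision.

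The 8 genes, the lists, the settings and the rule for named genes were chosen with earlier results of these data known. That rule took the 8 genes throughout, list genes that were called, the 3 genes most like each of the 8, and markers as lists. Some genes that the rule takes are not reported here. Alternatives varied background correction, normalisation, signal filter, probe choice, slide and scan day blocks, the fit, and left out each array. Testing each probe on its own over 40831 probes was added after seeing the data.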

Additional observations from a re-analysis of the deposited data

Results flagged for a closer look

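The values of the 8 genes were searched for single lungs that stood apart from the other 3 or 4 of their group by Dixon's test. Of 112 groups of values tested, 8 held such a lung, and chance marks about 1 in 20.

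Among the genes of synthesis and its control, the lungs were the following. Hmgcs1 was -0.34 in replicate 5 of NRCWE-025 54 µg day 28, where the others ran from 0.15 to 0.35. Sqle was -2.09 in replicate 1 of NRCWE-025 18 µg day 1 (others -1.33 to -1.12). Idi1 was 0.0256 in replicate 3 of NRCWE-025 162 µg day 28 (others 0.33 to 0.34). Insig1 was -0.54 in replicate 3 of the controls of day 1 (others -0.10 to 0.06).

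Abca1 stood apart in 3 groups, at 2.14 in replicate 4 of the controls of day 28 (others 1.68 to 1.77), at 0.20 in replicate 5 of NRCWE-025 54 µg day 28 (others 1.69 to 2.22) and at 0.70 in replicate 3 of NRCWE-030 18 µg day 1 (others 1.91 to 2.27). Ch25h was 1.40 in replicate 5 of NRCWE-025 54 µg day 28 (others 1.87 to 1.93). That last array was marked for 3 of the 8 genes and had the lowest share of spots well above background in Cy5, 49.1%. The part of its dim signal in these values was not tested.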

How the results depend on the processing

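The 162 µg call of Ch25h for NRCWE-030 on day 1 held in every setting run, with adjusted p from 0.00152 to 0.0420 (limma). No called difference changed sign. Sign changes among those not called were sought at 162 µg and, for Ch25h, at each dose. They were found for Srebf2 at 162 µg (both NMs on day 28 and NRCWE-025 on day 1), Insig1 at 162 µg of NRCWE-025 on day 28 and Ch25h at 18 µg of NRCWE-030 on day 28. The lower doses of the other genes were not searched for them. The replicate numbers follow the accession order and tie no lungs together, so lungs were tied only by slide and by scan day, as blocks. For the causes of the changes below, the cause was not tested.

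Of the 8 genes, the count called at 162 µg of NRCWE-025 on day 1 was 0, not 1, with normexp on the backgrounds as deposited, no background correction, scaling between arrays, the scanner log ratio, the series matrix, or a fixed block for the slide or for the scan day. The dose F-test count for NRCWE-030 on day 1 was 0, not 1, with the ordinary F-test and with scan day as a block. The 54 µg count for NRCWE-030 on day 1 was 1 (Ch25h) with slide as a fixed or a random block. With slide as a random block, the counts were also 1 by the F-test for NRCWE-025 on day 1, 2 at 162 µg of NRCWE-030 on day 1, and 1 by the F-test and 1 at 162 µg for NRCWE-030 on day 28, where scan day as a block also gave 1 by the F-test. Leaving out 1 array gave 0 to 1 for both day 1 F-tests, for 162 µg of NRCWE-025 and for 54 µg of NRCWE-030 on day 1, and 1 to 2 for 162 µg of NRCWE-030 on day 1. The gains were Ch25h by the F-test for NRCWE-025 without replicate 4 of 54 µg (adjusted p 0.0431), Ch25h at 54 µg of NRCWE-030 without replicate 2 or 3 of 18 µg (0.0376 and 0.0443), and Srebf2.

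Over all genes, calls moved more. The day 1 F-test called 4 genes for NRCWE-025 (0 to 135 in other settings) and 178 for NRCWE-030 (74 to 459). At 162 µg on day 1 it was 39 (0 to 171) and 316 (50 to 585). On day 28 the F-tests called 5 (0 to 14) and 19 (3 to 96), and 162 µg 3 (0 to 9) and 18 (5 to 72). Slide as a random block, which added calls among the 8 genes, gave the highest counts here of 135, 459, 171, 96 and 72. At 54 µg of NRCWE-030 on day 1 that block called 118 of all genes, against 15 in the main setting. The tests between the NMs called 29 (12 to 80) and 45 (8 to 61) on days 1 and 28, those between the days 11 (2 to 206) and 37 (18 to 77), and that between the controls 7 (4 to 1375). Dim probes limit Hmgcs1 and Srebf2.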
